A study of Mus musculus with 2 samples.

Results

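The interleukin-1 (IL-1) axis and the NF-κB regulators were described here as 10 genes, chosen by symbol from the deposited gene tables. No cutoff on their values was used, but the genes and the gene lists below were chosen with earlier results of these data known. They are *Il33*, *Il1rl1*, *Il1r1*, *Myd88*, *Rela*, *Relb*, *Nfkb1*, *Nfkb2*, *Nfkbia* and *Tnfaip3*, and all 10 were found among the 24532 genes of the count table. The cells were cardiac myofibroblasts, the matrix-producing cells of the injured heart, isolated 3 days after myocardial infarction from C57BL/6 mice, which per the study's methods were young adult males, and cleared of CD45-positive leukocytes. Both groups were transfected with 12.5 nM siRNA and harvested 72 h later. The control group (siCtrl) received a control siRNA, and the other group (si*Vgll3*) an siRNA against *Vgll3*, which encodes a transcription cofactor that binds TEAD factors. Whether the cells of a library came from 1 animal or several is not given in the sources used here. Each group had 1 library, so the differences below lack a replicate check and carry no p-values.

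IL-1 family cytokines act through paired receptor chains that recruit the adaptor MYD88. MYD88 assembles IRAK kinases and TRAF6, the IKK complex is activated, and the inhibitor IκBα is degraded so that NF-κB dimers enter the nucleus. NF-κB then induces inflammatory genes together with its own inhibitors, among them IκBα and the ubiquitin-editing enzyme A20. In the heart, fibroblasts are known both as responders to IL-1 and as a source of IL-33, the ligand of the ST2 receptor.

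Reads assigned to genes numbered 140815237 for siCtrl and 125789276 for si*Vgll3*. The targeted gene, *Vgll3*, had 42925 reads under siCtrl and 16524 under its own siRNA, so that 41.6% of its siCtrl level in TPM was left. TPM is a level scaled for transcript length and library size, so that levels of different genes can be compared. M is log2 of the TPM under si*Vgll3* divided by that under siCtrl, and A is log2 of the mean TPM of both libraries. A gene was counted as lower with M < −0.5 and as higher with M > 0.5, in both cases with A > 0. Square brackets after M give the 95% Clopper-Pearson interval of the read ratio, moved onto the TPM ratio. Such intervals, and the Poisson intervals of the levels, cover counting error only, and take the deposited counts as plain read counts. Whether low counts are plain counts or estimates is not given in the sources used here, and for estimates the intervals would not hold. In these bulk libraries, fewer cells of a type and less RNA per cell cannot be told apart.

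Fibroblast identity was checked on 10 markers, all of which had A > 0, with *Vim* highest at 5343 TPM (siCtrl) and 6541 TPM (si*Vgll3*). Of these markers 5 were lower and 1 was higher. Their sum was 35003 CPM (siCtrl) and 27435 CPM (si*Vgll3*), where CPM scales reads for library size only. The lower sum was mainly that of *Col1a1*, at 13224 CPM (siCtrl) and 7328 CPM (si*Vgll3*), and *Col1a2*, at 10855 CPM and 7797 CPM. *Postn*, *Pdgfrb* and *Tcf21* were also lower, while *Vim*, *Acta2*, *Thy1*, *Ddr2* and *Pdgfra* had M above 0. The paper reports reduced collagen mRNA after this knockdown, so the lower sum was not read as fewer fibroblasts. The part of these marker changes in the values below was not tested. In these cells, 1 of the IL-1 and NF-κB genes was lower after *Vgll3* knockdown (*Il33*, at 48.6% of its siCtrl level) and 1 was higher (*Tnfaip3*, at 1.77-fold). Of all 11754 genes with A > 0, 11.4% were lower and 5.73% were higher by the same rule, so 1 of 9 genes in each direction is close to that background for lower and a single gene above it for higher. The remaining gene, *Il1rl1*, was too low to be counted. Between the thresholds lay 7 genes, 6 of them with M below 0. The median M of the 9 genes was −0.35, and that of all genes with A > 0 was −0.05. M was below 0 for 77.8% of the 9 genes and for 57% of all genes.

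**Figure D1:**
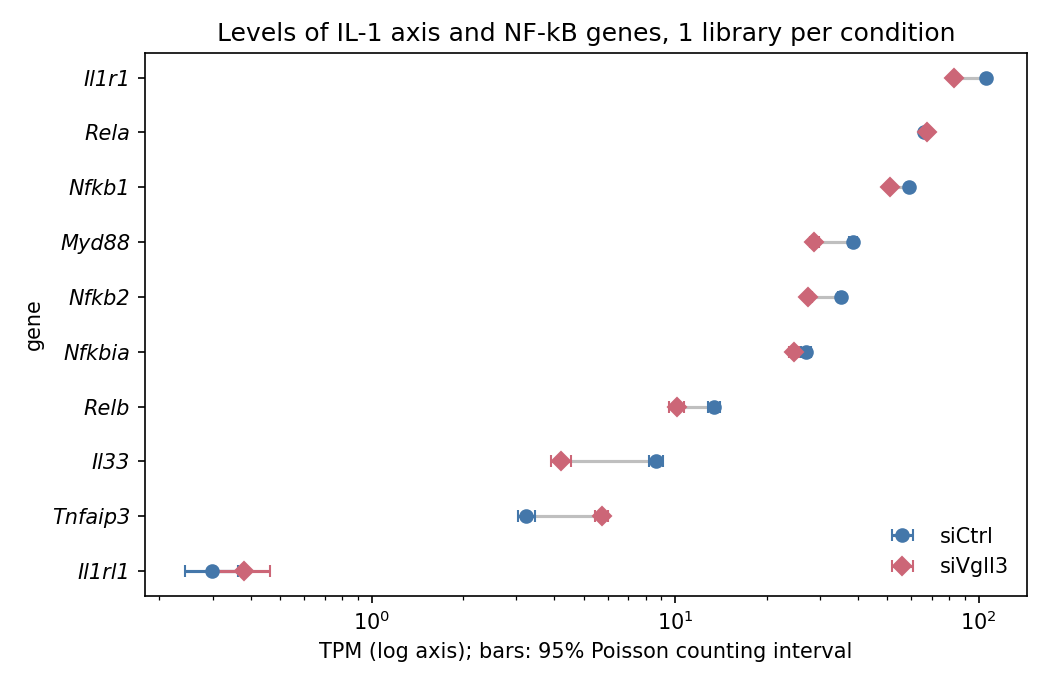
Level of each gene in TPM (log axis) in the siCtrl library (circles) and the siVgll3 library (diamonds), with 95% Poisson counting intervals. The levels run from 0.298 TPM for Il1rl1 to 106 TPM for Il1r1 in siCtrl, and Il33 and Tnfaip3 exchange places between the libraries.

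In siCtrl, the order of the levels from high to low was *Il1r1*, *Rela*, *Nfkb1*, *Myd88*, *Nfkb2*, *Nfkbia*, *Relb*, *Il33*, *Tnfaip3* and *Il1rl1*. No neighbours in this order had overlapping counting intervals. The order was the same in si*Vgll3* except that *Tnfaip3* stood above *Il33*, and there the intervals of *Myd88* and *Nfkb2* overlapped. Whether neighbouring levels differ beyond the spread between cultures could not be assessed with 1 library each.

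Among the ligands, *Il33* encodes a cytokine that is stored in the nucleus and released from damaged cells. It had 1405 reads (8.67 TPM) under siCtrl against 634 reads (4.21 TPM) under si*Vgll3*. The M was −1.04 [−1.18, −0.91], the lowest of the 10 genes, and 2.94% of all genes with A > 0 had a lower M. *Il33* (NCBI gene 77125) lies on chromosome 19 of GRCm38 from 29925113 to 29960718, and its start overlaps the long noncoding RNA gene *Gm41832*. Whether reads were counted by strand is not given in the sources used here, so reads of that neighbour could have been counted on *Il33*. RefSeq places 2 promoters at *Il33*, shown here because it was the gene with the lowest M and because the partner of VGLL3, TEAD, recognises the letters GGAATG. In each window, which runs from 250 bases before to 50 bases after a start site of GRCm38.p6, the single match to GGAATG on either strand is in capitals. Positions are counted from the start site, with −1 as the base before it.

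*Il33*, chr19:29924863-29925162, plus strand, match at −131 to −126: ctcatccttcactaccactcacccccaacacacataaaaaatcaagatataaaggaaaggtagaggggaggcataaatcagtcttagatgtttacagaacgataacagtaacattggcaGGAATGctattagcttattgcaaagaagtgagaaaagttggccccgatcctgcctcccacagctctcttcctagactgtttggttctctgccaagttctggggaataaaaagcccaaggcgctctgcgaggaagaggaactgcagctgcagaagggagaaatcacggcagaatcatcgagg
*Il33*, chr19:29945540-29945839, plus strand, match at −107 to −102: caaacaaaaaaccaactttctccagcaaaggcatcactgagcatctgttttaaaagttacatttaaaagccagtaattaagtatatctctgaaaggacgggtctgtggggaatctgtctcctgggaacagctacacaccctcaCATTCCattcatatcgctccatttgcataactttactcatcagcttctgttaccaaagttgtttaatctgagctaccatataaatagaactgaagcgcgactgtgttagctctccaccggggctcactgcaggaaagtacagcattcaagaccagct

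The letters GGAATG occurred in 14.7% of all 32851 RefSeq promoter windows of this length and in 5 of the 14 windows that the table held for 8 of the 10 genes. Beside *Il33*, matches lay in windows of *Il1rl1*, *Il1r1* and *Nfkb2*. *Nfkb1* and *Relb* were not in the promoter table. A match describes the letters only. In the paper, siRNA to *Tead1* left fibrotic genes of such cells unaffected, and it proposes that TEAD1 lies outside the VGLL3 fibrotic pathway. Whether TEAD factors act on *Il33* was not tested. *Nfkb2* and *Il1r1*, which have such a match as *Il33* does, were both between the thresholds.

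The other ligands of the family were a list of 9 genes, 8 of them matched to the count table and 2 with A > 0. Of these 2, 1 was lower and 0 were higher, beside 11.4% and 5.73% of all genes. *Il1rn*, which encodes the receptor antagonist that blocks IL-1 signalling, was lower, at 1.84 TPM (siCtrl) and 0.671 TPM (si*Vgll3*) with an M of −1.45 [−1.80, −1.12]. *Il18* was at 2.10 TPM and 2.73 TPM, an M of 0.38 [0.01, 0.74]. The agonists *Il1a* and *Il1b* were listed at 0 reads in both libraries, as were 4 further ligands. A count of 0 allows up to 3 reads by sampling alone. In these tables, however, 177 genes were at 0 in 1 library with at least 20 reads in the other, so a listed 0 was not read as absence.

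Among the receptors, *Il1r1* (NCBI gene 16177, chromosome 1 from 40222480 to 40316201) encodes the signalling receptor for IL-1α and IL-1β and was the most abundant of the 10 genes. It had 32157 reads (106 TPM) under siCtrl against 23308 reads (82.8 TPM) under si*Vgll3*. The M of −0.35 [−0.37, −0.33] was well resolved by counting but did not reach the threshold. *Il1rl1* (NCBI gene 17082, chromosome 1 from 40404864 to 40465418) encodes ST2, which is made as a membrane receptor and as a shorter soluble decoy, and it was the least abundant. It had 101 reads under siCtrl against 94 under si*Vgll3*, which is 0.298 TPM against 0.379 TPM. For *Il1rl1*, the M of 0.35 had an interval from −0.07 to 0.77 that held 0, so no difference was detectable at this depth. The level of *Il1r1* was 354 times that of *Il1rl1* in siCtrl and 219 times in si*Vgll3*. *Il33* stood at 29.1 times the level of *Il1rl1* in siCtrl and at 11.1 times in si*Vgll3*. These ratios are of TPM and have no interval, and the change of *Il1rl1* that enters them depended on the unit.

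The value of *Il1rl1* also depended on the unit. From CPM, which has no transcript length in it, its M was 0.06 in place of 0.35. For *Il1rl1*, 1 TPM stood for 339 reads in siCtrl and for 248 reads in si*Vgll3*. The file lists 3 transcripts for *Il1rl1*, with lengths of 5302, 2661 and 1216 nt in GENCODE, and the gene table does not give values for each of them. The gap between M from TPM and M from CPM was −0.05 at the median of genes with A > 0, and 95% of them lay between −0.08 and −0.02. All of the other 9 genes lay inside that range, while *Il1rl1* was at 0.29. Among the 2395 genes too low for A > 0, 95% lay between −0.63 and 0.38, and 3.09% lay further above 0 than *Il1rl1*. Gaps of that size below 0 are not in this share. The part that transcript length has in the *Il1rl1* value was not tested.

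**Figure D2:**
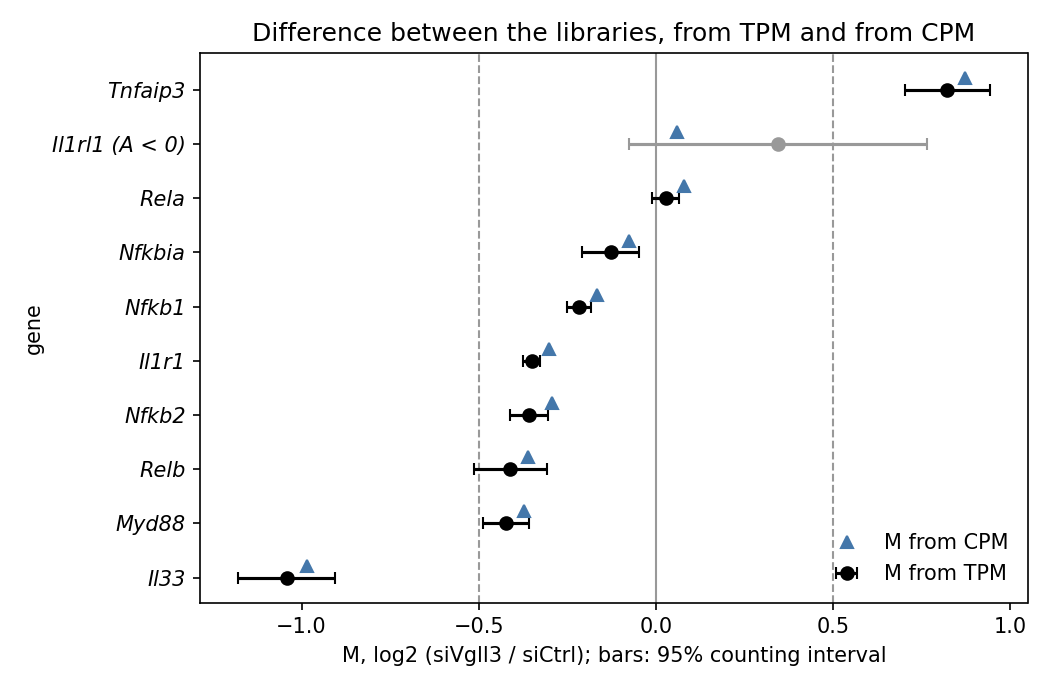
M of each gene (log2 of siVgll3 over siCtrl) from TPM (circles with 95% counting intervals) and from CPM (triangles), with dashed lines at −0.5 and 0.5. Il33 at −1.04 and Tnfaip3 at 0.82 lie past the lines with their whole intervals, and Il1rl1, drawn grey because its A is below 0, has the largest gap between the units.

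The other receptors of the family were a list of 8 genes, of which 3 had A > 0. All 3 had M below 0, beside 57% of all genes. Of them 1 was counted as lower and 0 as higher, beside 11.4% and 5.73% of all genes. *Il1rl2*, which encodes the IL-36 receptor, was lower, at 17.6 TPM (siCtrl) and 8.23 TPM (si*Vgll3*) with an M of −1.10 [−1.21, −0.98]. Its interval in the annotation also holds the pseudogene *Gm17970*. *Il1rap*, the accessory chain shared by the IL-1, IL-33 and IL-36 receptors, was at 82.0 TPM and 62.8 TPM, an M of −0.38 [−0.41, −0.36]. From CPM the M of *Il1rap* was −0.27, outside that interval. The gap between the units, −0.12, lay outside the range that held 95% of genes with A > 0. *Il1r1* and its partner *Il1rap* thus both had M below 0, and neither passed the threshold. *Il1r2*, which encodes the decoy receptor for IL-1 and is named here after its value was seen, was at 1.60 TPM and 1.16 TPM.

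*Myd88* (NCBI gene 17874, chromosome 9 from 119335934 to 119340018) encodes the adaptor that links these receptors to the IRAK kinases. It had 4686 reads (38.5 TPM) under siCtrl against 3235 reads (28.7 TPM) under si*Vgll3*. With an M of −0.42 [−0.49, −0.36], *Myd88* came closest to the lower threshold among those of the 10 genes that did not pass it. The kinases, ligases and adaptors next to MYD88 formed a list of 16 genes, of which 15 had A > 0, with a median M of −0.04. Of these 15, 1 was lower and 1 higher, beside 11.4% and 5.73% of all genes. *Irak2*, a kinase of the complex that MYD88 assembles, was higher, at 16.5 TPM (siCtrl) and 23.8 TPM (si*Vgll3*) with an M of 0.53 [0.46, 0.59], an interval that held the threshold. *Ube2v1*, a partner of the ubiquitin-conjugating enzyme UBC13 in the chains that activate TAK1, was lower, with an M of −1.62 [−1.66, −1.58]. Its levels were 156 TPM (siCtrl) and 50.7 TPM (si*Vgll3*), and the long noncoding RNA gene *Gm11476* overlaps it. *Ube2n*, which encodes UBC13 itself, was at 91.1 TPM and 106 TPM, an M of 0.22.

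The IKK kinases and their adaptors, 18 genes, all had A > 0 and a median M of −0.09, with 3 lower (16.7%, beside 11.4% of all genes) and 0 higher. *Map3k14*, which encodes NIK, the kinase that starts the non-canonical arm, was lower, at 3.28 TPM (siCtrl) with 60.9% of that level left under si*Vgll3*, an M of −0.72 [−0.88, −0.55]. *Ikbke*, an IKK-related kinase, had an M of −0.59 [−0.72, −0.46], from 5.98 TPM in siCtrl to 3.97 TPM in si*Vgll3*. *Rnf31*, the catalytic subunit of the linear ubiquitin ligase, had an M of −0.57 [−0.67, −0.46], with 9.59 TPM and 6.48 TPM. The intervals of *Ikbke* and *Rnf31* held the threshold, and noncoding genes overlap *Ikbke* and *Map3k14* in the annotation. The genes of the IKK complex itself, named after their values were seen, are *Chuk* and *Ikbkb* for its kinases and *Ikbkg* for its regulatory subunit NEMO, and they had M of 0.14, 0.10 and 0.28. *Rbck1* and *Tank*, the most abundant of the list, were at 51.9 TPM and 42.0 TPM in siCtrl and at 51.7 TPM and 43.9 TPM in si*Vgll3*.

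The Rel family supplies the subunits of NF-κB. *Rela* (NCBI gene 19697, chromosome 19 from 5637442 to 5648134), the main transactivating subunit, had 11447 reads (66.2 TPM) under siCtrl against 10801 reads (67.5 TPM) under si*Vgll3*. Its M of 0.03 [−0.01, 0.07] held 0. *Nfkb1* (NCBI gene 18033, chromosome 3 from 135584655 to 135691969), which encodes the p105 precursor of p50, had 15537 reads (59.1 TPM) under siCtrl against 12366 reads (50.8 TPM) under si*Vgll3*, an M of −0.22 [−0.25, −0.18]. With CPM, TMM scaling, DESeq2 size factors or centring, the M of *Rela* was 0.07 to 0.08 and its interval lay above 0, so whether the counting interval holds 0 depends on the scaling. *Nfkb1* was at 86.0% of siCtrl. The long noncoding RNA gene *Gm46827* lies inside *Nfkb1*.

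The subunits of the non-canonical arm stood further from 0. *Nfkb2* (NCBI gene 18034, chromosome 19 from 46300994 to 46312400), which encodes the p100 precursor of p52, had 6949 reads (35.2 TPM) under siCtrl against 5070 reads (27.4 TPM) under si*Vgll3*, an M of −0.36 [−0.41, −0.31]. *Relb* (NCBI gene 19698, chromosome 7 from 19606217 to 19629438), the usual partner of p52, had 1883 reads (13.4 TPM) under siCtrl against 1311 reads (10.1 TPM) under si*Vgll3*, an M of −0.41 [−0.51, −0.31]. Neither passed the threshold, and the interval of *Relb* reached just past it. In siCtrl, *Relb* was at 20.3% of the level of *Rela*, and in si*Vgll3* at 15.0%. *Nfkb2* overlaps *Psd* and the noncoding gene *4833438C02Rik*.

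The 5 Rel family genes together reached 176 TPM (siCtrl) and 158 TPM (si*Vgll3*). The share of *Rela* in that sum was 37.5% in siCtrl and 42.7% in si*Vgll3*, and that of *Nfkb1* was 33.5% and 32.2%. *Nfkb2* gave 19.9% and 17.4%, and *Relb* 7.61% and 6.40%. The fifth gene, *Rel*, which encodes the lymphoid subunit c-Rel and is named here to complete the family, gave 1.49% and 1.30%. *Rela* was therefore the only one of the 5 with a larger share in si*Vgll3* than in siCtrl. A list of the other Rel and IκB genes, *Rel* among them, held 7 genes, with 6 at A > 0 and a median M of −0.29. Of these 6, 0 were past either threshold, beside 11.4% lower and 5.73% higher of all genes. In this list, *Nfkbib*, which encodes IκBβ, was at 30.5 TPM and 34.5 TPM (M 0.18), and *Bcl3*, a nuclear IκB protein, at 29.7 TPM and 21.4 TPM (M −0.47).

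The 2 inhibitor genes lay on opposite sides of 0. *Nfkbia* encodes IκBα, the classical inhibitor that NF-κB itself induces. It had 2713 reads (26.9 TPM) under siCtrl against 2299 reads (24.6 TPM) under si*Vgll3*, an M of −0.13 [−0.21, −0.05]. With CPM the M of *Nfkbia* was −0.08 and its interval held 0. *Tnfaip3* encodes A20, which edits ubiquitin chains to end the signal and is also induced by NF-κB. It had 913 reads (3.24 TPM) under siCtrl against 1495 reads (5.72 TPM) under si*Vgll3*, an M of 0.82 [0.70, 0.94]. The interval of *Tnfaip3* lay above 0 under each of the scalings tried, and 97.5% of all genes with A > 0 had a lower M. The level of *Tnfaip3* was 12.0% of that of *Nfkbia* in siCtrl and 23.2% in si*Vgll3*. *Nfkbia* (NCBI gene 18035) lies on chromosome 12 from 55489409 to 55492647, and *Tnfaip3* (NCBI gene 21929) on chromosome 10 from 19000910 to 19015410. No other RefSeq gene overlaps either of them.

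The promoters of *Nfkbia* and *Tnfaip3* are shown because both are textbook NF-κB targets whose M differed, and that of *Nfkb2* because it held the most matches of any window of the 10 genes. Capitals mark matches to the NF-κB consensus (κB) motif, searched on both strands in windows from 250 bases before to 50 bases after the start site. In *Nfkb2*, the first capital run holds 2 matches that overlap, offset by 1 base.

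*Nfkbia*, chr12:55492598-55492897, minus strand, match at −29 to −20: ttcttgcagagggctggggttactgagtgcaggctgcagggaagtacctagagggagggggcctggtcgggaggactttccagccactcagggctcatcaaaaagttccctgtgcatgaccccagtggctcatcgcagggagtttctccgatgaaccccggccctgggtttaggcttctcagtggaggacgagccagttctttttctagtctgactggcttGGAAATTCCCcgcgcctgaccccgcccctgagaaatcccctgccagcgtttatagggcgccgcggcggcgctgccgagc
*Tnfaip3*, chr10:19015361-19015660, minus strand, matches at −125 to −116 and −12 to −3: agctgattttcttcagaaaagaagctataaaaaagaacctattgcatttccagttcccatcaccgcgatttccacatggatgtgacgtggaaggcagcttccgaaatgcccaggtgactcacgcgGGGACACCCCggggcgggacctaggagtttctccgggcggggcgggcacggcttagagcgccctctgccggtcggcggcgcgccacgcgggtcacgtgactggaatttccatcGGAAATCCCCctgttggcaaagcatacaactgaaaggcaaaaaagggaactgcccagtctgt
*Nfkb2*, chr19:46304487-46304786, plus strand, matches at −39 to −29 and −11 to −2: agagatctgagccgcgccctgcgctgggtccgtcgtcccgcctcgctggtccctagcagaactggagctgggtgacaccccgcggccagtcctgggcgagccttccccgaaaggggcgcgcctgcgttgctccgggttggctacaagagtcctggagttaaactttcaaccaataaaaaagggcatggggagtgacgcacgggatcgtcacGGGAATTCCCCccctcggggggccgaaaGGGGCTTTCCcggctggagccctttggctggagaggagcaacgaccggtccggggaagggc

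The κB motif was found in 4.51% of all 32851 promoter windows, or at 5.14% of the 27025 genes in the table. Of the 14 windows of the genes described here, 6 had a match, and these belonged to *Nfkbia*, *Tnfaip3*, *Nfkb2* and *Il1r1*. Some letters were counted for both motifs. The κB match of *Il1r1* at −232 to −223 holds a GGAATG match at −232 to −227. A κB match of *Nfkb2* at −236 to −227 holds the GGAATG match of that gene, at −236 to −231. A second window of *Tnfaip3*, another window of *Il1r1*, both windows of *Il33* and those of *Il1rl1*, *Myd88* and *Rela* had no match. Of the 4 genes with a match, *Tnfaip3* was higher and the other 3 had M between −0.36 and −0.13. Of the 3 windows of *Nfkb2*, 2 overlap and share a match, so the windows are not independent.

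Of the other brakes, a list of 13 genes for ubiquitin editing and related steps, 12 had A > 0 with a median M of −0.08. Of these 12, 0 passed either threshold, beside 11.4% lower and 5.73% higher of all genes. *Rnf11*, a partner of A20 in ubiquitin editing, was at 197 TPM (siCtrl) and 265 TPM (si*Vgll3*), an M of 0.43 [0.40, 0.45]. *Pdlim2*, which encodes a ubiquitin ligase for RelA, was at 183 TPM and 176 TPM, an M of −0.06. *Tnip1*, which encodes a protein that binds A20 and is named after its value was seen, was at 24.0 TPM and 18.6 TPM, an M of −0.37. The M of *Tnfaip3*, 0.82, was above that of each of these 12 genes, a gap that was not tested.

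Other receptors that feed into NF-κB numbered 17, with 11 at A > 0 and a median M of −0.32. Of these 11, 0 were lower and 1 was higher, beside 11.4% and 5.73% of all genes. *Tnfrsf1a*, the main receptor for TNF, was at 301 TPM (siCtrl) and 237 TPM (si*Vgll3*), an M of −0.35 [−0.37, −0.33], the same M as *Il1r1* to 2 decimals. *Tnfrsf12a*, the receptor for TWEAK, was at 255 TPM and 308 TPM, an M of 0.28. *Cd14*, a co-receptor of Toll-like receptors, was higher, but from 163 reads in siCtrl to 231 reads in si*Vgll3*, with an M of 0.62 [0.32, 0.92] that held the threshold. Taking the 7 pathway lists as 1, 6 of 67 genes with A > 0 (8.96%) were lower and 2 (2.99%) were higher, beside 11.4% and 5.73% of all genes. The median M was −0.10. Whether these shares differ from those of all genes was not tested.

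**Figure D3:**
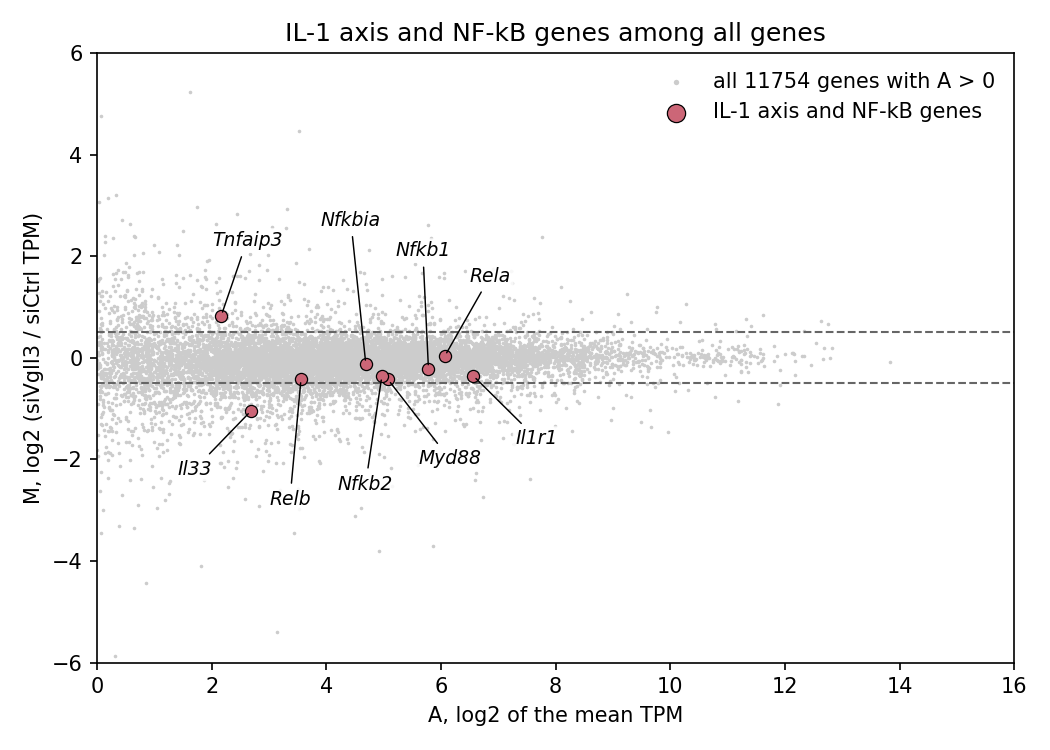
M against A for all 11754 genes with A > 0 (grey) and the 9 IL-1 and NF-κB genes among them (red), with dashed lines at −0.5 and 0.5. Il33 lies below the lower line and Tnfaip3 above the upper line, and the other 7 lie between them.

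The genes that NF-κB is known to induce were described from a list of 33 genes of which 25 had A > 0. Of these, 9 (36%) were higher and 2 (8%) lower, beside 5.73% and 11.4% of all genes, and the median M was 0.11 beside −0.05 for all genes. The list was chosen with earlier results of these data known. It held none of the 10 genes and none of the pathway lists, although NF-κB induces some of those genes as well. *Nfkbia* (M −0.13) and *Tnfaip3* (M 0.82) are thus outside these shares, which depend on how the lists were split. The genes kept out of the list lay mostly below 0. With A > 0, M was below 0 for 77.8% of the 9 genes and 68.7% of the 67 pathway genes. In the target list it was below 0 for 48%. Whether these shares differ was not tested. *Ptgs2*, which encodes an inducible prostaglandin synthase, had the highest M of the list, 2.61 [2.57, 2.66], with 15.3 TPM (siCtrl) and 93.4 TPM (si*Vgll3*). *Lcn2*, an iron-binding acute-phase protein gene, followed with an M of 2.02 [1.77, 2.27], and *Ier3*, an early stress response gene, was at 52.6 TPM and 149 TPM. The neutrophil and monocyte attractants *Cxcl1*, *Ccl2*, *Cxcl5* and *Ccl7* had M of 1.44, 1.39, 1.17 and 1.12. *Il6*, the cytokine of the acute phase, was at 97.4 TPM (siCtrl) and 213 TPM (si*Vgll3*), an M of 1.13, and *Sele*, an endothelial adhesion gene, had an M of 0.71 at 1.12 TPM in siCtrl.

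The same list held genes that did not move with these. *Cxcl10*, a chemokine gene also driven by interferon, was lower, with 199 reads under siCtrl against 18 under si*Vgll3* and an M of −3.35 [−4.14, −2.66]. *Vcam1*, an adhesion gene, was lower at 178 TPM and 122 TPM, an M of −0.54 [−0.57, −0.52]. Between the thresholds lay 14 genes, among them *Csf1*, the macrophage growth factor and the most abundant of the list, at 399 TPM and 508 TPM (M 0.35). *Icam1* and *Sod2*, textbook targets named after their values were seen, had M of −0.02 and −0.07. *Nfkbia*, at −0.13, stood near these, and *Tnfaip3*, at 0.82, lay between *Sele* and *Ccl7*. *Art3* overlaps *Cxcl10* in the annotation, and noncoding genes overlap *Il6* and *Sele*.

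**Figure D4:**
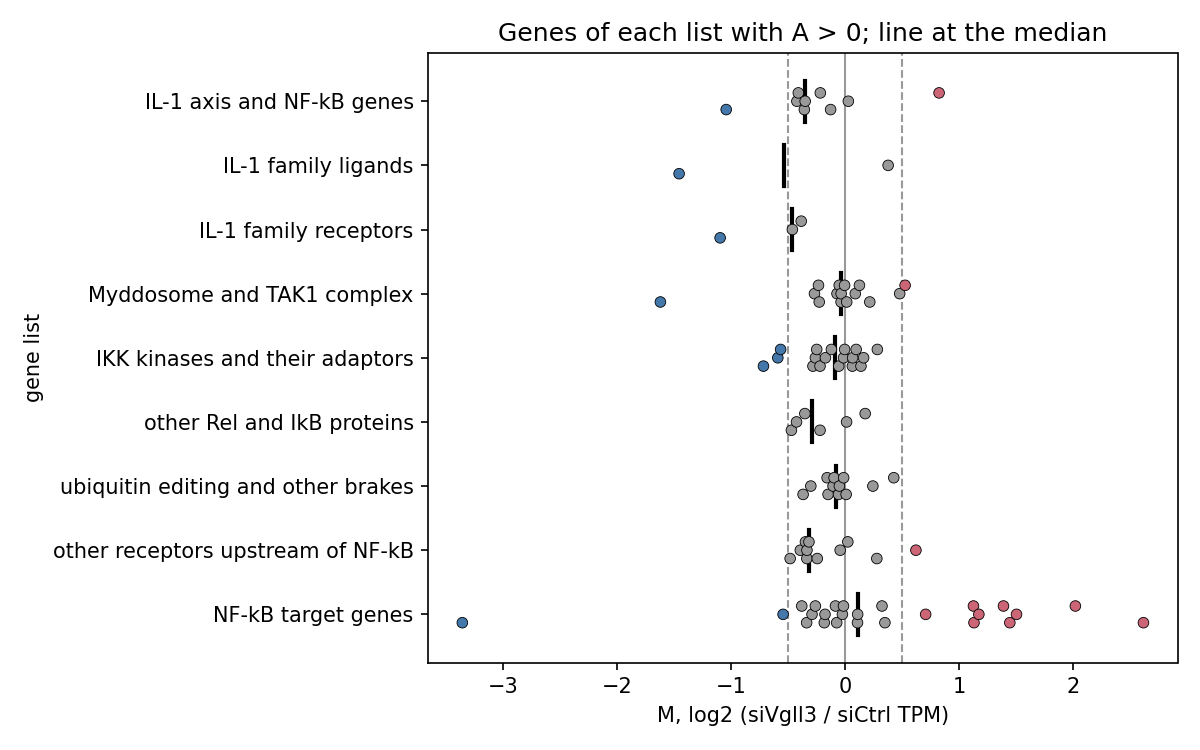
M of every gene with A > 0 in the IL-1 and NF-κB genes, the 7 pathway lists and the target list, coloured blue where M < −0.5, red where M > 0.5 and grey between, with a black line at each median. The pathway lists cluster near or below 0, while 9 of the 25 target genes lie above 0.5.

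Markers of other cell types were read beside these values, since leukocytes and endothelial cells also carry IL-1 family receptors. Of 9 leukocyte markers 3 had A > 0, and *Ptprc* (CD45), *Adgre1*, *Itgam* and *Cd3e* were listed at 0 in both libraries. The leukocyte list summed to 8.24 CPM (siCtrl) and 5.65 CPM (si*Vgll3*), with *Lyz2* highest at 10.9 TPM and 3.13 TPM. *Lyz2* was lower (M −1.80), *Csf1r* was higher (M 0.50) and *Cd68* lay between the thresholds (M −0.09), so the lower sum was that of *Lyz2*. Of 7 markers of mast cells and type 2 lymphocytes, which bear ST2, 1 had A > 0, *Gata3*, at 2.04 TPM and 2.91 TPM, and the list summed to 4.89 CPM and 5.54 CPM. *Fcer1a*, *Il5* and *Il13* were listed at 0. Of 4 endothelial markers, 3 had A > 0 and the list summed to 48.8 CPM and 40.5 CPM, with *Tek* highest at 19.5 TPM and 13.4 TPM. *Tek* was lower (M −0.54) and made up most of that sum, while the other 3 markers had M above 0, with *Pecam1* at 0.47, *Cdh5* at 0.50 and *Kdr*, which did not reach A > 0, at 0.97. Of 4 cardiomyocyte markers, *Tnnt2* was at 60.0 TPM and 10.4 TPM, while *Myh6*, *Actc1* and *Nppa* were listed at 0. Markers other than the highest of each list were named after their values were seen. The part of such cells in the values of *Il33*, *Il1rl1* and the other genes was not tested.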

How the data were processed

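RNA of myofibroblasts from infarcted hearts was compared between siCtrl and si*Vgll3*, each with 1 library. The authors made stranded mRNA libraries for an Illumina NovaSeq instrument, and used FastQC, Trimmomatic (reads under 36 bp removed), HISAT2 on mm10 and StringTie, whose versions are not given in the sources used here. The authors deposited raw read counts per gene, and TPM per gene normalised for length and library size. For each gene, M and A were computed from TPM, with no value added, for 11754 genes with A > 0. Read ratios have 95% Clopper-Pearson intervals and levels exact Poisson intervals (scipy 1.17.1). Only the read-ratio intervals were tested on simulated data, which held counting error alone and no spread between cultures. No model was fitted, since 1 library per condition leaves no replicate error, and edgeR 4.0.16 and DESeq2 1.42.0 gave scaling factors only. Gene positions and promoters came from RefSeq for GRCm38.p6 (mm10), and transcript lengths from GENCODE vM21.

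The 10 genes and the lists were chosen with earlier results of these data known. Named are all 10 genes, and from each list every gene past a threshold and the 2 most abundant, and of the markers the highest of each list. Of the listed symbols, *Il36rn* was not matched. Alternatives were CPM, TMM factors, size factors, centring, 0.1 or 1 TPM added, another definition of A, other filters, a threshold of 1, and whole intervals beyond 0.5.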

Additional observations from a re-analysis of the deposited data

How the results depend on the processing

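The sign of M was kept for all 10 genes under the 6 other ways to compute it, CPM, TMM scaling, DESeq2 size factors, centring, and 0.1 or 1 TPM added. *Il33* ranged from −1.04 to −0.89, *Tnfaip3* from 0.67 to 0.87 and *Il1rl1*, with the widest range, from 0.05 to 0.39. *Rela* ranged from 0.03 to 0.08, with its counting interval above 0 under 4 scalings and holding 0 as reported, and the interval of *Nfkbia* held 0 with CPM. *Il33* was lower under each of the 12 other settings, and *Tnfaip3* was higher under each except a threshold of 1, which left 0 higher. That threshold also left 3 pathway genes lower and 0 higher. Pathway genes counted as higher were 1 with 1 TPM added, 1 with A > 2, 5 with no filter on A, 4 with at least 10 reads in each library, and 0 with the whole interval beyond 0.5. Target genes counted as lower were 1 with CPM, centring or a threshold of 1 (*Cxcl10*), and 1 with A > 2 or A taken as a mean of logs (*Vcam1*). Filters and thresholds act on which genes count, 1 TPM added shrinks M of low genes, and CPM and centring moved the median of all genes from −0.05 to 0.01 and to 0. Over all genes, 1341 were lower and 674 higher, beside 2103 and 1428 with no filter, 384 and 207 with a threshold of 1, and 977 and 442 with whole intervals; 393 were higher with A > 2, and 1159 with at least 10 reads. With 1 library per condition, none could be left out, and no paired analysis was possible because there are no pairs of replicates. Depth limits *Il1rl1*, with 101 and 94 reads, more than any other of the 10 genes.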

Other observations

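Some genes of the pathway lay outside the filter on A or had no M, and entered none of the counts of the preceding comparisons. *Il18rap*, the accessory chain of the IL-18 receptor, had 104 reads under siCtrl against 481 under si*Vgll3*, or 0.333 TPM and 1.66 TPM, with an M of 2.32 [2.01, 2.64]. Its A was just below 0, so that it was counted as higher with 0.1 TPM added, and *Il18r1*, the ligand-binding chain of the same receptor, was listed at 0 reads in both libraries. *Nfkbid*, an atypical IκB gene, had 7 reads under siCtrl against 19 under si*Vgll3*, an M of 1.72 [0.40, 3.21]. *Peli3*, a ligase that acts on IRAK kinases, was at 0.283 TPM and 0.532 TPM, an M of 0.91 [0.46, 1.37].

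*Tlr7*, an endosomal receptor for RNA, was listed at 0 reads in siCtrl and 32 in si*Vgll3*, and *Mcpt4*, a mast cell protease gene, at 125 and 0. All of these genes were named after their values were seen, and their low counts have no replicate check.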
